A study of Mus musculus with 12 samples.

Results

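10 receptors through which growth factors and cytokines reach myeloid cells were followed: Csf1r, Flt3, Kit, Csf2ra, Il3ra, Csf2rb, Csf2rb2, Csf3r, Il6ra and Il10ra. They were chosen by name, and all 10 were matched by mouse symbol to 1 row each among the 56953 Ensembl genes of the count and TPM (length-scaled transcript abundance) tables. RNA was sequenced from 12 libraries of cells sorted from the bone marrow of 8-week-old female C57BL/6J mice, 3 libraries in each of 4 groups: eYFP+ macrophages, eYFP- macrophages, Ly6Chi monocytes and Ly6Clo monocytes. The labels give no treatment beyond these sort gates and no genotype. Per the study's methods, the gates were set in Rank cre/+;R26.eYFP fl/+ mice, in which Cre driven from the Rank (Tnfrsf11a) locus switches on a yellow fluorescent reporter in embryonic macrophages and their progeny. eYFP+ therefore marks cells by their history, and a cell in which the reporter did not recombine is counted as eYFP-. The macrophage gate used F4/80, CD206 and VCAM1. Whether replicates came from separate mice is not stated in the labels, so the p-values measure only the spread between these libraries, which may be technical.

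The libraries held 26390927 to 48618187 counts, and all 10 receptors had at least 1 count in each. Macrophage markers followed the labels: the summed level of 10 of them was 43620 to 55244 TPM in macrophages against 371 to 2810 TPM in monocytes. All 10 were higher in macrophages (DESeq2), and 7 of 7 classical monocyte markers tested were higher in Ly6Chi than in Ly6Clo monocytes. Ly6Clo replicate 2 stood furthest apart. It held counts for 16434 genes, against 21330 to 27634 in the others, and correlated with the other Ly6Clo libraries at r = 0.71 and r = 0.75 over 2000 genes, where all other replicate pairs reached at least 0.878. The next lowest values were those of eYFP+ replicate 1 with its group. Receptor results are therefore given with and without Ly6Clo replicate 2.

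The receptors fall into families that signal in different ways. CSF1R, FLT3 and KIT are related receptor tyrosine kinases: CSF1R keeps macrophages and monocytes alive, FLT3 is best known from multipotent progenitors and dendritic cell development, and KIT from blood stem cells and mast cells. The receptors for GM-CSF, IL-3 and IL-5 combine a ligand-specific alpha chain with a shared beta chain (CSF2RB), and the mouse has a second, closely similar beta chain (CSF2RB2) used by IL-3 alone. The G-CSF receptor (CSF3R) pairs with itself and drives neutrophil production, whereas IL6RA and IL10RA bind their ligands and signal with the partner chains IL6ST and IL10RB.

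Macrophages held less transcript of most of these receptors than monocytes did. In the contrast of both macrophage groups with both monocyte groups, 6 of 10 receptors were lower and 0 higher by DESeq2 at an adjusted p under 0.05. These were Flt3, Csf2ra, Csf2rb, Csf2rb2, Csf3r and Il6ra, with log2 fold changes from -3.60 to -1.25. Of the 22385 genes tested, 15.0% were called lower and 20.3% higher. The median log2 fold change of the 10 receptors was -1.35, beside 0.08 over all genes tested. edgeR's quasi-likelihood test called 6 of the 10 lower as well, beside 15.8% of its genes. Without Ly6Clo replicate 2, Csf1r and Il10ra were also lower, 8 of 10 in all, beside 17.7% of genes.

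Between eYFP+ and eYFP- macrophages, 2 of 10 receptors differed, Flt3 and Kit, both lower in eYFP+ cells (DESeq2). Of the 21567 genes tested, 1.88% were called lower and 0.153% higher. The median log2 fold change of the receptors was -0.09, beside 0.05 over all genes. edgeR called 0 of the 10 in this contrast and 0.334% of its genes in either direction, where DESeq2 had 2 receptors at an unadjusted p under 0.05. On simulated counts for this contrast DESeq2 made more false calls than edgeR and recovered more of the true changes. Those counts were drawn from edgeR's dispersions, with the same mean in all groups apart from the planted changes. They therefore cannot weigh the calls of Flt3 and Kit, which were made by DESeq2 alone. Blocking on replicate number in DESeq2 kept the calls of Flt3 and Kit (adjusted p = 1.01e-05 and 0.0106) and raised the number of all genes called from 439 (33 higher, 406 lower) to 1155 (471 higher, 684 lower). The number called higher also rose without eYFP- replicate 2 (182 higher, 347 lower) and without Ly6Clo replicate 2 (106 higher, 759 lower). Among the DESeq2 fits that left a library out, it was lowest without eYFP- replicate 3 (12 higher, 215 lower). By edgeR it was lower still (1 higher, 63 lower), also with a replicate block (0 higher, 24 lower). DESeq2 called Flt3 and Kit as well in the absence of Ly6Clo replicate 2, beside 3.65% of genes lower.

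Between Ly6Chi and Ly6Clo monocytes, DESeq2 called 0 of 10 receptors, with 8.62% of the 21567 genes tested called in either direction. At an unadjusted p under 0.05 there were 2, Il3ra and Csf3r, both higher in Ly6Chi cells. edgeR called 0 receptors as well, beside 4.32% of its genes, and DESeq2 called 0 in the absence of Ly6Clo replicate 2, beside 9.7%. The median log2 fold change of the receptors was 0.26, beside 0.02 over all genes.

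**Figure D1:**
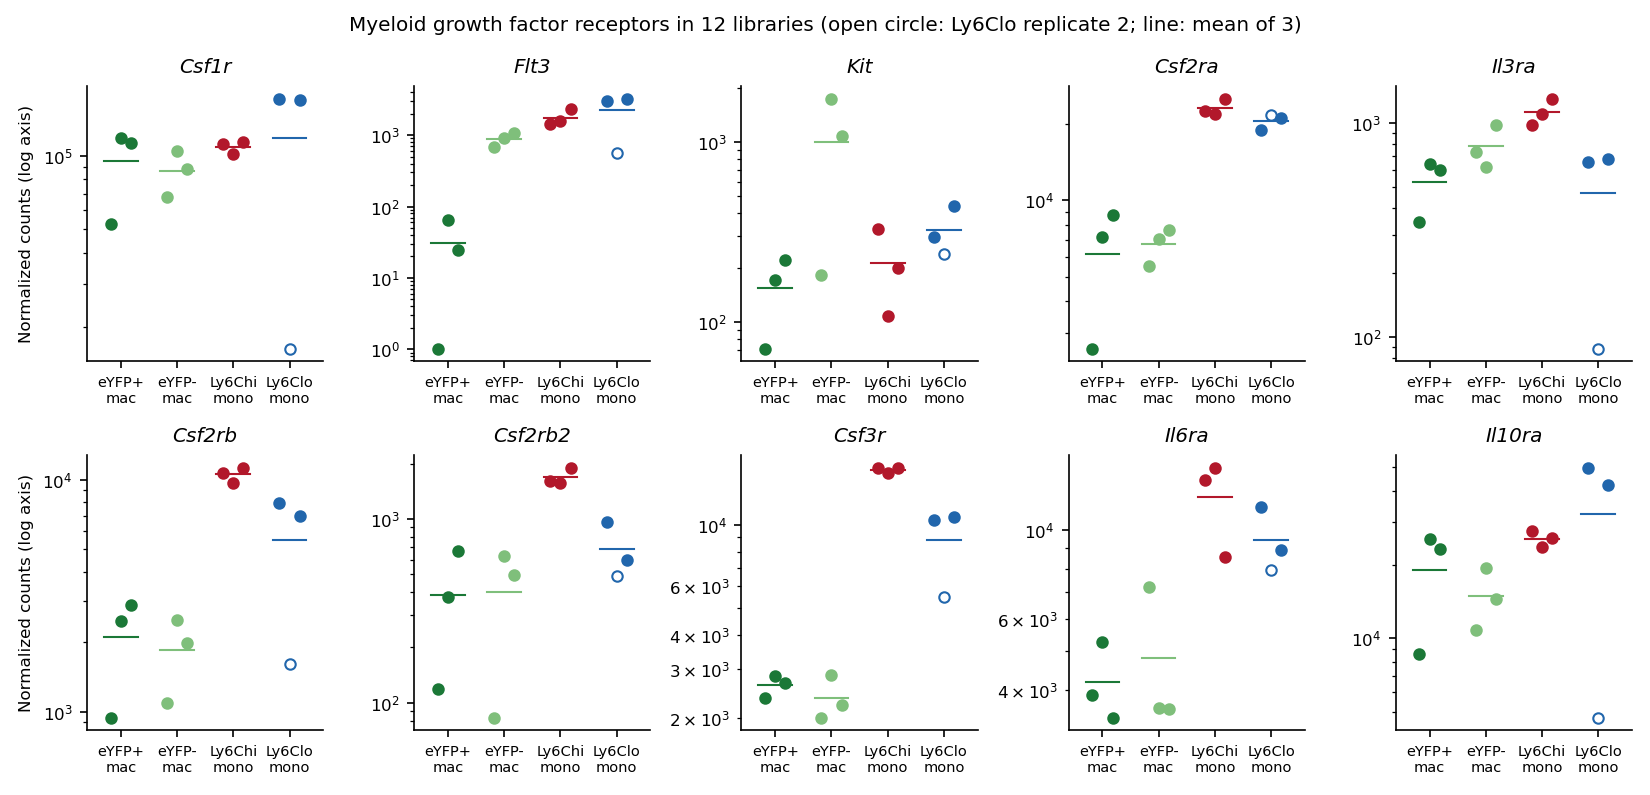
Normalized counts (log axis) of the 10 receptors in each of the 12 libraries, with 1 panel per gene, 1 colour per group, a line at the mean of 3 libraries and an open circle for Ly6Clo replicate 2. The 3 Ly6Chi libraries lie close together for most receptors, Flt3 is lowest in eYFP+ macrophages, and the open circle falls far under its group for Csf1r, Flt3, Il3ra, Csf2rb and Il10ra but not for Csf2ra.

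In bulk libraries such as these, fewer cells that carry a receptor and less receptor RNA per cell cannot be told apart. Values per library are normalized counts, that is, scaled by each library's DESeq2 size factor, in the order of replicates 1, 2 and 3. TPM, which is scaled by transcript length, is used where different genes are compared.

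Csf1r (ENSMUSG00000024621) was the most abundant of the receptors in 11 of 12 libraries by TPM. It had 52579, 118469 and 112938 normalized counts in eYFP+ macrophages and 67514, 104094 and 88066 in eYFP- macrophages. Ly6Chi monocytes had 111341, 101682 and 113380, and Ly6Clo monocytes 170934, 16344 and 168226. The groups overlap. Ly6Clo replicates 1 and 3 are the highest of all libraries and Ly6Clo replicate 2 the lowest. No contrast was called with 12 libraries (DESeq2 adjusted p from 0.634 to 1). Leaving out Ly6Clo replicate 2, Csf1r was lower in both macrophage groups together (log2 fold change -0.64 ± 0.23, SE, DESeq2 adjusted p = 0.0181). It was also lower in eYFP- than in Ly6Clo cells (-1.02 ± 0.35, adjusted p = 0.0149) and in eYFP+ than in Ly6Clo cells (-0.90 ± 0.35, adjusted p = 0.0375). Between the macrophage groups the interval of the log2 fold change ran from -1.13 to 1.38, so a difference of about 2-fold in either direction could not be seen. With Ly6Clo replicate 2 left out the value was 0.12 ± 0.31 (DESeq2 adjusted p = 0.937) and its interval ran from -0.48 to 0.73, short of 2-fold in either direction. That library is in neither macrophage group. Leaving it out changed the dispersion that the fit shares over all groups and lowered the SE from 0.64 to 0.31. The narrower interval therefore rests on the choice of monocyte libraries, while the eYFP+ libraries alone ran from 52579 to 118469.

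Flt3 (ENSMUSG00000042817) had 1.03, 65.8 and 24.4 normalized counts in eYFP+ macrophages, from 1, 69 and 33 counts. It had 680, 917 and 1077 in eYFP- macrophages. The 2 groups do not overlap, and the lowest eYFP- library is over 10 times the highest eYFP+ library. The log2 fold change was -4.87 ± 0.83 (SE, DESeq2 adjusted p = 2.24e-06). By edgeR the adjusted p was 0.0626, and 0.144 when replicate number was added as a block. Each of the 12 fits that left out 1 library called Flt3 (DESeq2 adjusted p from 2.93e-11 to 0.000405). The log2 fold change ranged from -6.10 without eYFP+ replicate 2 to -4.31 without eYFP+ replicate 1.

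In monocytes Flt3 was readily detected. Ly6Chi monocytes had 1424, 1551 and 2306 normalized counts and Ly6Clo monocytes 2997, 565 and 3253. Replicate 2 is again the low Ly6Clo library, and it lies under all Ly6Chi and all eYFP- libraries. eYFP+ macrophages were lower than Ly6Chi monocytes (log2 fold change -5.85 ± 0.83, SE, DESeq2 adjusted p = 4.21e-11, edgeR 0.00122) and lower than Ly6Clo monocytes (-6.22 ± 0.83, DESeq2 adjusted p = 2.02e-12, edgeR 0.00106). eYFP- macrophages were not called against either with 12 libraries (DESeq2 adjusted p = 0.423 and 0.231). Without Ly6Clo replicate 2 they were lower than Ly6Clo monocytes (-1.86 ± 0.71, DESeq2 adjusted p = 0.0331). Dendritic cell genes summed to 158 to 166 TPM in Ly6Chi and 735 to 2983 TPM in Ly6Clo monocytes. Of 9 tested, 5 were lower and 1 higher in Ly6Chi cells (DESeq2). Cd209a held most of the Ly6Clo sums (562, 2820 and 549 TPM). The part of dendritic cells in the Flt3 values was not tested.

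Kit (ENSMUSG00000005672) showed another order, with its highest mean in eYFP- macrophages. Those libraries had 183, 1738 and 1079 normalized counts, against 71.0, 171 and 221 in eYFP+ macrophages. Replicates 2 and 3 of the eYFP- group are high, and replicate 1 lies within the eYFP+ range. The log2 fold change was -2.69 ± 0.69 (SE, DESeq2 adjusted p = 0.00856), and edgeR gave an adjusted p of 0.202. The DESeq2 call was lost without eYFP+ replicate 1 (adjusted p = 0.0684), without eYFP- replicate 2 (0.130) and without eYFP- replicate 3 (0.0763). Monocytes were low in Kit, with 328, 108 and 198 normalized counts in Ly6Chi and 295, 238 and 437 in Ly6Clo cells. eYFP- macrophages were higher than Ly6Chi monocytes (log2 fold change 2.24 ± 0.69, SE, DESeq2 adjusted p = 0.00659, edgeR 0.045).

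Some markers of other marrow cells were, like Flt3 and Kit, lower in eYFP+ than in eYFP- macrophages. The summed level of 10 stem and progenitor markers was 113 to 119 TPM in eYFP- and 14.9 to 16.5 TPM in eYFP+ macrophages, and 3 of 10 were called lower in eYFP+ cells. None of the 10 was at 0 in all libraries of either group. Cd34, a surface marker of early progenitors, had 22.0, 44.6 and 40.4 TPM in eYFP- and 0.17, 3.12 and 1.16 TPM in eYFP+ libraries. Replicate 1 is the lowest eYFP- library for Cd34, but Gfi1b, at 70.9, 36.8 and 35.8 TPM, is highest there. Granule protein genes of early neutrophil precursors behaved alike: Mpo had 129, 424 and 512 TPM in eYFP- and 6.66, 34.6 and 4.52 TPM in eYFP+ libraries. Over the whole list of 12 neutrophil genes the sum was 241 to 2626 TPM in eYFP- and 123 to 212 TPM in eYFP+ macrophages, with 4 of 12 lower. Within the eYFP- group replicate 2 stood apart, with sums of 241, 2626 and 825 TPM and S100a8 at 35.1, 946 and 82.5 TPM. It is also the highest Kit library and 1 of those without which the Kit call was lost.

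Mast cell, basophil and eosinophil genes summed to 894 to 1970 TPM in eYFP- and 792 to 1189 TPM in eYFP+ macrophages, and 2 of 8 tested were lower. Ccr3, an eosinophil chemokine receptor gene, was at 613 to 624 TPM in eYFP- and 780 to 1167 TPM in eYFP+ libraries. Prg2, an eosinophil granule protein gene, was at 103, 68.4 and 917 TPM in eYFP- and 2.28 to 5.96 TPM in eYFP+ libraries, and it held the largest part of the sum in eYFP- replicate 3. The basophil protease gene Mcpt8 was at 87.4, 155 and 203 TPM in eYFP- and at 0, 0.18 and 0.15 TPM in eYFP+ libraries. Among 9 dendritic cell genes, whose sum was 65.4 to 103 and 60.4 to 87.7 TPM, 3 were lower. These were Xcr1, Cd209a and Bcl11a. Xcr1, a marker of cross-presenting dendritic cells, had 2.40 to 7.05 TPM in eYFP- and 0.08 to 0.29 TPM in eYFP+ libraries. Clec9a, another such marker, was not called (DESeq2 adjusted p = 0.745). Siglech, Ccr9 and Clec10a had log2 fold changes of 1.72, 0.37 and 0.13, higher in eYFP+ cells, and were not called. Erythroid genes summed to 20818 to 32591 TPM in eYFP- and 8174 to 13294 TPM in eYFP+ macrophages (2 of 9 lower), and classical monocyte genes to 24.9 to 136 and 14.7 to 31.8 TPM (2 of 7 tested lower). T and NK cell genes summed to 23.0 to 51.1 and 4.04 to 17.0 TPM, and the lowest DESeq2 adjusted p was 0.254, for Klrb1c. Of 4 megakaryocyte genes tested 1 was lower, Itga2b, an integrin gene also used by early progenitors, at 11.2 to 21.1 TPM in eYFP- and 0.46 to 0.96 TPM in eYFP+ libraries. The part of these cells in the Flt3 and Kit values was not tested.

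**Figure D2:**
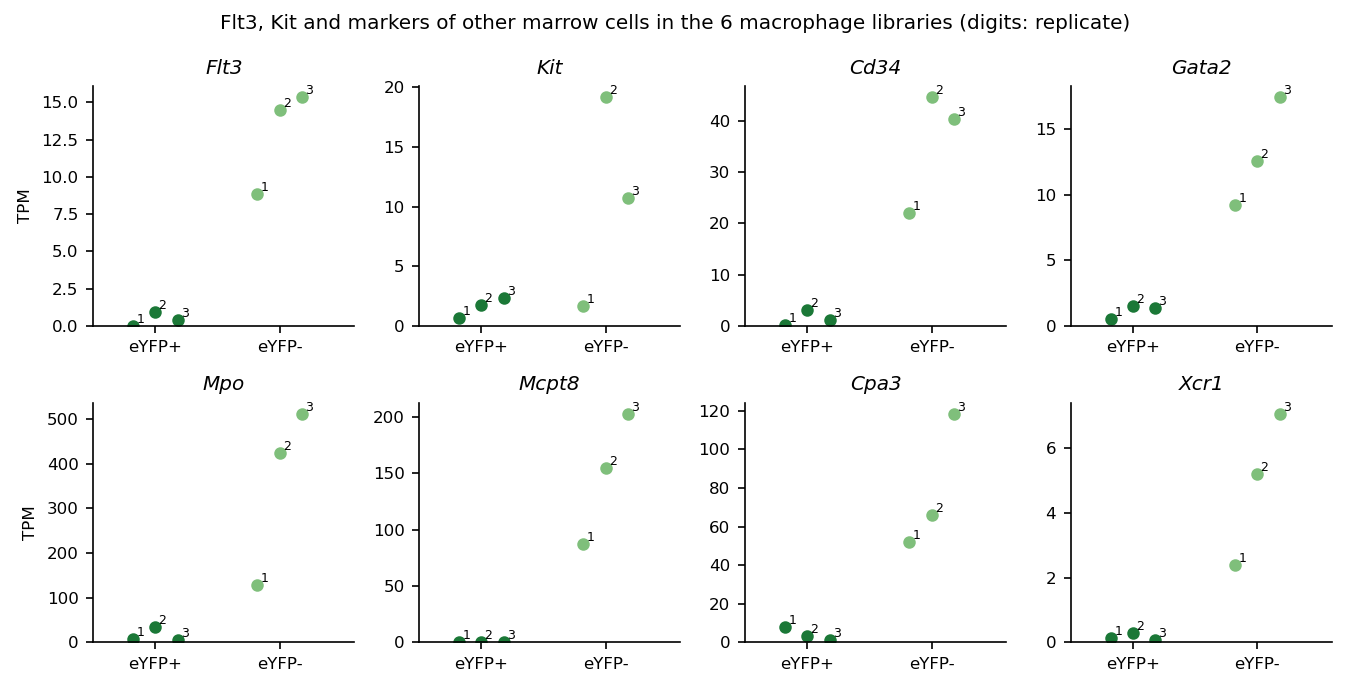
TPM (linear axis from 0) of Flt3, Kit and markers of other marrow cells in the 6 macrophage libraries, with the replicate number beside each point. All 3 eYFP- libraries lie above all 3 eYFP+ libraries in each panel except that of Kit, where eYFP- replicate 1 does not. The markers shown were picked from longer lists and do not stand for them. Other genes of these lists overlap or, like Ccr3 (log2 fold change 0.62), are higher in eYFP+ libraries. Gata2 was not called (DESeq2 adjusted p = 0.474), and Cpa3 had no adjusted p.

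Csf2ra (ENSMUSG00000059326), the GM-CSF-binding alpha chain, separated macrophages from monocytes without overlap. It had 2596, 7154 and 8742 normalized counts in eYFP+ and 5503, 7064 and 7652 in eYFP- macrophages. Ly6Chi monocytes had 22603, 22002 and 25291, and Ly6Clo monocytes 18995, 21855 and 21202. The lowest monocyte library is above 2 times the highest macrophage library, and Ly6Clo replicate 2 lies above the other two of its group. Macrophages were lower (log2 fold change -1.77 ± 0.28, SE, DESeq2 adjusted p = 6.28e-09), and the 4 single-group contrasts were called too, with log2 fold changes from -1.92 to -1.62. Between the macrophage groups the value was -0.13 ± 0.40 (DESeq2 adjusted p = 1) and between the monocyte groups 0.17 ± 0.40 (0.870). A correction for transcript GC content, which is 57.8% for Csf2ra, turned the last value to -0.41.

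Il3ra (ENSMUSG00000068758), the IL-3-binding alpha chain, was scarce and had the highest mean in Ly6Chi monocytes. It had 346, 644 and 600 normalized counts in eYFP+ macrophages, 728, 625 and 980 in eYFP- macrophages, 981, 1097 and 1297 in Ly6Chi and 654, 88.4 and 675 in Ly6Clo monocytes. The Ly6Chi libraries lie just above all others, with 981 against 980 at the border. No contrast was called in the main fit with 12 libraries. With Ly6Clo replicate 2 left out, eYFP+ macrophages were lower than Ly6Chi monocytes (log2 fold change -1.14 ± 0.30, SE, DESeq2 adjusted p = 0.000578). This difference was also called with the GC correction, which keeps all 12 libraries (-1.03 ± 0.38, DESeq2 adjusted p = 0.028).

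Csf2rb (ENSMUSG00000071713), the beta chain that the GM-CSF, IL-3 and IL-5 receptors share, was also low in macrophages. It had 943, 2451 and 2881 normalized counts in eYFP+ and 1085, 2492 and 1967 in eYFP- macrophages. Ly6Chi monocytes had 10642, 9693 and 11281, and Ly6Clo monocytes 7918, 1606 and 7003. Monocytes are above all macrophages except for Ly6Clo replicate 2, which falls inside the macrophage range. The log2 fold change of macrophages against monocytes was -1.95 ± 0.41 (SE, DESeq2 adjusted p = 1.2e-05), and -2.23 ± 0.30 without that library. Against Ly6Chi monocytes alone the log2 fold change was -2.51 for eYFP- and -2.33 for eYFP+ macrophages (DESeq2 adjusted p = 0.000124 and 0.00044). Against Ly6Clo monocytes the DESeq2 adjusted p was 0.0279 for eYFP- and 0.0543 for eYFP+ macrophages, and 3.67e-05 and 0.000177 without Ly6Clo replicate 2. With 12 libraries the eYFP- call was lost by edgeR (adjusted p = 0.0693) and with a replicate block in DESeq2 (0.058).

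Csf2rb2 (ENSMUSG00000071714), the IL-3-specific beta chain, had 119, 375 and 665 normalized counts in eYFP+ and 83.1, 631 and 494 in eYFP- macrophages. Ly6Chi monocytes had 1617, 1579 and 1906, and Ly6Clo monocytes 968, 490 and 595. Ly6Chi monocytes are above all others, and Ly6Clo monocytes overlap the macrophages. Macrophages were lower than monocytes (log2 fold change -1.45 ± 0.48, SE, DESeq2 adjusted p = 0.00916), and lower than Ly6Chi but not called against Ly6Clo monocytes (adjusted p = 0.448 for eYFP- and 0.404 for eYFP+). Reads were counted only where they could be assigned without ambiguity, and these neighbouring genes are close copies, so the split between them is uncertain. With Csf2rb and Csf2rb2 counts summed to 1 feature, macrophages were lower than monocytes by a log2 fold change of -1.88 (DESeq2 adjusted p = 2.7e-05).

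Csf3r (ENSMUSG00000028859), the G-CSF receptor, had the tightest difference. It had 2360, 2835 and 2683 normalized counts in eYFP+ and 2005, 2864 and 2220 in eYFP- macrophages. Ly6Chi monocytes had 16029, 15379 and 16134, and Ly6Clo monocytes 10371, 5486 and 10655. Ly6Chi is above Ly6Clo and Ly6Clo above macrophages in every library. The log2 fold change of macrophages against monocytes was -2.25 ± 0.22 (SE, DESeq2 adjusted p = 1.22e-23, edgeR 5.82e-06). Between Ly6Chi and Ly6Clo monocytes it was 0.84 ± 0.31 (DESeq2 adjusted p = 0.0631, edgeR 0.108). That value passed the threshold under 4 alternatives: a minimum of 10 counts in 3 libraries (0.0303), the GC correction (0.0301), and without Ly6Clo replicate 1 (0.0495) or replicate 3 (0.0404). Neutrophil markers were present in all monocyte libraries, at 15883 to 24021 TPM in Ly6Chi and 6782 to 16016 TPM in Ly6Clo cells over 12 genes, and their part in the Csf3r values was not tested.

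Il6ra (ENSMUSG00000027947), the IL-6-binding chain, had 3872, 5255 and 3413 normalized counts in eYFP+ and 7198, 3601 and 3575 in eYFP- macrophages. Ly6Chi monocytes had 13308, 14290 and 8561, and Ly6Clo monocytes 11421, 7964 and 8896. The lowest monocyte library, Ly6Clo replicate 2, is above the highest macrophage library, eYFP- replicate 1. The log2 fold change of macrophages against monocytes was -1.25 ± 0.27 (SE, DESeq2 adjusted p = 1.73e-05). Against Ly6Clo monocytes alone eYFP- macrophages gave -0.98 ± 0.38 (DESeq2 adjusted p = 0.0385, edgeR 0.0554).

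Il10ra (ENSMUSG00000032089), the IL-10-binding chain, followed Csf1r. It had 8578, 25379 and 23233 normalized counts in eYFP+ and 10819, 19423 and 14453 in eYFP- macrophages. Ly6Chi monocytes had 27315, 23611 and 25583, and Ly6Clo monocytes 49896, 4735 and 42245. As for Csf1r, the Ly6Clo group holds both the highest libraries and the lowest. With 12 libraries no contrast was called. Without Ly6Clo replicate 2, macrophages were lower than monocytes (log2 fold change -1.08 ± 0.28, SE, DESeq2 adjusted p = 0.000516), as were eYFP- (-1.68 ± 0.42, adjusted p = 0.000436) and eYFP+ macrophages (-1.33 ± 0.42, adjusted p = 0.00731) against Ly6Clo monocytes.

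**Figure D3:**
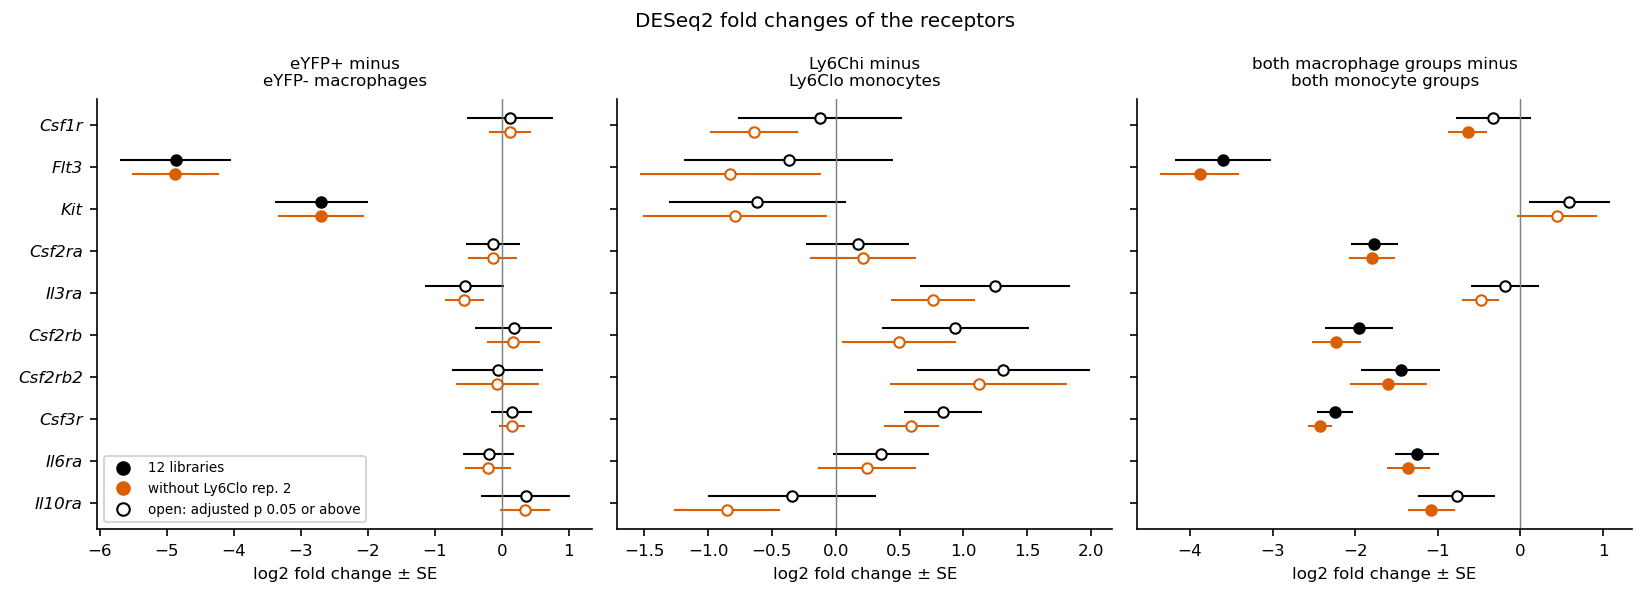
DESeq2 log2 fold changes with their SE for the 10 receptors in 3 contrasts, from 12 libraries (black) and without Ly6Clo replicate 2 (orange), filled where the adjusted p was under 0.05. Only Flt3 and Kit are filled in the first panel, none in the second, and 6 (black) or 8 (orange) in the third.

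The other receptors called in macrophages against monocytes hardly moved when Ly6Clo replicate 2 was left out: the DESeq2 log2 fold change was -3.88 for Flt3, -1.80 for Csf2ra, -1.60 for Csf2rb2, -2.43 for Csf3r and -1.36 for Il6ra, each with an adjusted p under 0.05.

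Taking each macrophage group against each monocyte group, eYFP- macrophages against Ly6Chi monocytes gave 5 receptors lower and Kit higher, where 11.1% and 16.3% of 20749 genes tested were called in these directions. eYFP+ macrophages against Ly6Chi monocytes gave 6 lower (10.6% of 23203 genes). Against Ly6Clo monocytes there were 4 lower for eYFP- (10.8% of 21567 genes) and 4 lower for eYFP+ macrophages (12.2% of 20749 genes). These contrasts share libraries and are not independent. Without Ly6Clo replicate 2 the last 2 counts were 7 and 7, where 12.3% and 12.8% of genes were called lower.

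In the order of group means, few neighbouring groups differed. For Csf2ra, Csf3r and Il6ra the step between Ly6Clo monocytes and the higher macrophage group was called (DESeq2 adjusted p = 0.000518, 1.79e-07 and 0.0385), and for Flt3 the step between eYFP- and eYFP+ macrophages. For Csf1r, Kit, Il3ra, Csf2rb, Csf2rb2 and Il10ra no neighbouring pair passed the test in the main fit with 12 libraries. The nearest was the step of Csf2rb from Ly6Clo monocytes to eYFP+ macrophages (adjusted p = 0.0543). That step was called by DESeq2 with the GC correction (adjusted p = 0.0106) and without Ly6Clo replicate 2 (0.000177).

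By TPM, the 10 receptors summed to 765, 2035 and 2070 in eYFP+ and 1080, 1980 and 1535 in eYFP- macrophages. The sums were 2567, 2397 and 2633 in Ly6Chi and 3501, 908 and 3182 in Ly6Clo monocytes. Csf1r made up 63.9% to 67.6% of the sum in eYFP+ and 63.5% to 64.7% in eYFP- macrophages, beside 43.6% to 44.5% in Ly6Chi monocytes. In Ly6Clo monocytes its share was 53.3%, 17.5% and 54.0%. The share of Csf1r in eYFP+ replicate 1 is within 4 percentage points of the others although its sum is the lowest of all libraries. Csf2ra took 10.4% ± 2.07 in eYFP+ and 12.8% ± 1.48 in eYFP- macrophages and 24.0% ± 1.03 (SD, n = 3) in Ly6Chi monocytes. Csf3r took 8.48% to 8.91% in Ly6Chi monocytes and 2.05% to 4.10% in macrophages.

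Ratios within a library show the same shift. Csf1r exceeded Csf3r by a TPM ratio of 16.5 to 31.2 in macrophages, 5.14, 4.90 and 5.20 in Ly6Chi monocytes and 12.2, 2.21 and 11.7 in Ly6Clo monocytes. The ratio of Csf1r to Il10ra stayed narrower, at 3.47 to 4.64 in macrophages, 3.03 to 3.30 in Ly6Chi and 2.55, 2.57 and 2.96 in Ly6Clo monocytes. In that ratio Ly6Clo replicate 2 lies between the others of its group. The alpha chain Csf2ra exceeded the shared beta chain Csf2rb by 5.63 to 6.02 in Ly6Chi monocytes and 7.30 to 13.4 in macrophages, and by 6.36, 36.1 and 8.02 in Ly6Clo monocytes. Csf2rb made up 76.0% to 92.7% of the summed beta chain TPM over all libraries.

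**Figure D4:**
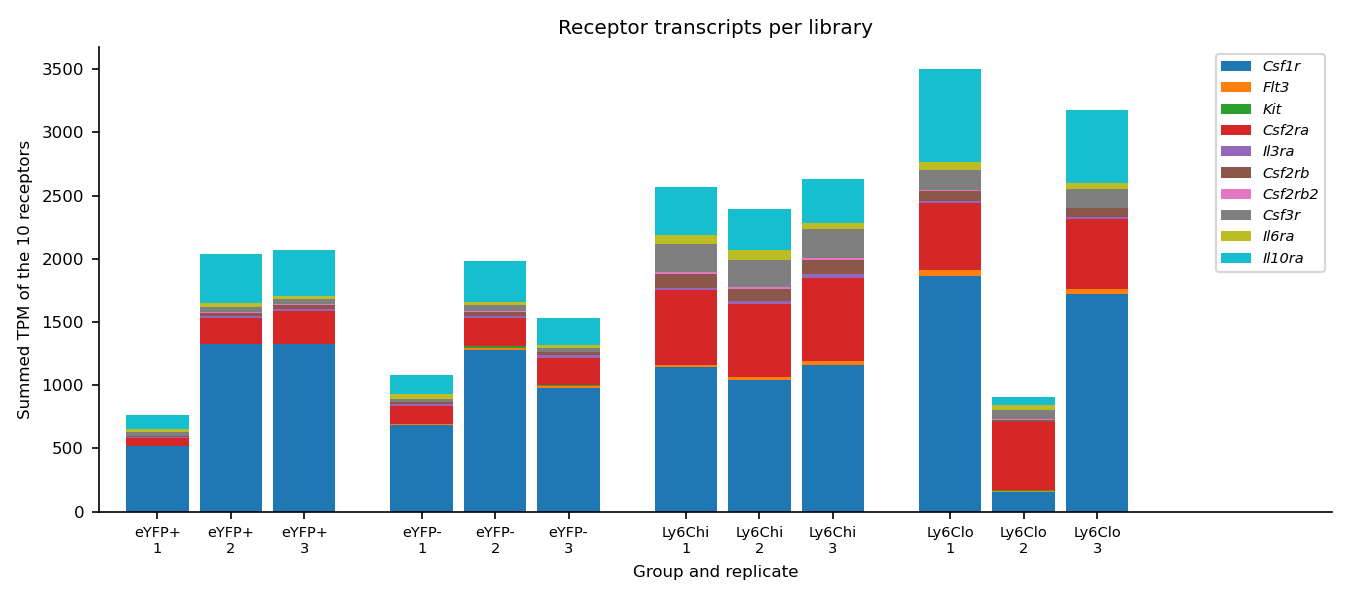
Summed TPM of the 10 receptors in each library (linear axis from 0), stacked by receptor. Csf1r fills about the same share of the bar in all 6 macrophage libraries, and Ly6Clo replicate 2 has a short bar in which Csf2ra takes 59.6%.

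In the library of Ly6Clo replicate 2 the receptors fell unequally. Relative to the mean of Ly6Clo replicates 1 and 3, it held 9.64% of Csf1r, 10.3% of Il10ra, 13.3% of Il3ra, 18.1% of Flt3 and 21.5% of Csf2rb. Csf3r stood at 52.2%, Csf2rb2 at 62.7%, Kit at 65.2%, Il6ra at 78.4% and Csf2ra at 108.7%. This library is low in genes of high transcript GC content: at the GC content of Csf1r (54.5%) the smooth over all genes lay 0.66 log2 units under the mean library, and at that of Csf2ra (57.8%) 1.06 units under it. Csf2ra has the second highest GC content of the receptors and was the only one not lower in this library, while Il3ra has the highest (60.7%, 1.27 units under the mean library) and was among the lowest. With the GC correction, the log2 fold change of Ly6Chi against Ly6Clo monocytes went from -0.12 to -0.19 for Csf1r and from -0.34 to -0.38 for Il10ra. For Il3ra it went from 1.25 to 1.07, and for Csf2ra from 0.17 to -0.41. The part of GC content in the values of this single library was not tested. The summed level of 9 dendritic cell genes was 2983 TPM there against 759 and 735 TPM, but Cd209a alone made up 2820 TPM of it. Of the other 8 genes, 7 were lower there than in both other Ly6Clo libraries, with Xcr1, Siglech and Ccr9 at 0, Clec9a at 0.58 TPM against 5.48 and 4.03 TPM, and Zbtb46, a transcription factor gene of conventional dendritic cells, at 1.49 TPM against 9.20 and 6.15 TPM.

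The library of eYFP+ replicate 1 also differed from its group. Relative to the mean of replicates 2 and 3 it was lower by 4.36-fold for Csf2rb2, 3.06-fold for Csf2ra, 2.83-fold for both Csf2rb and Il10ra, 2.76-fold for Kit, 2.20-fold for Csf1r and 1.80-fold for Il3ra. Csf3r and Il6ra differed least, by 1.17-fold and 1.12-fold. Flt3 had 1 count there, against 69 and 33 in the other eYFP+ libraries.

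**Figure D5:**
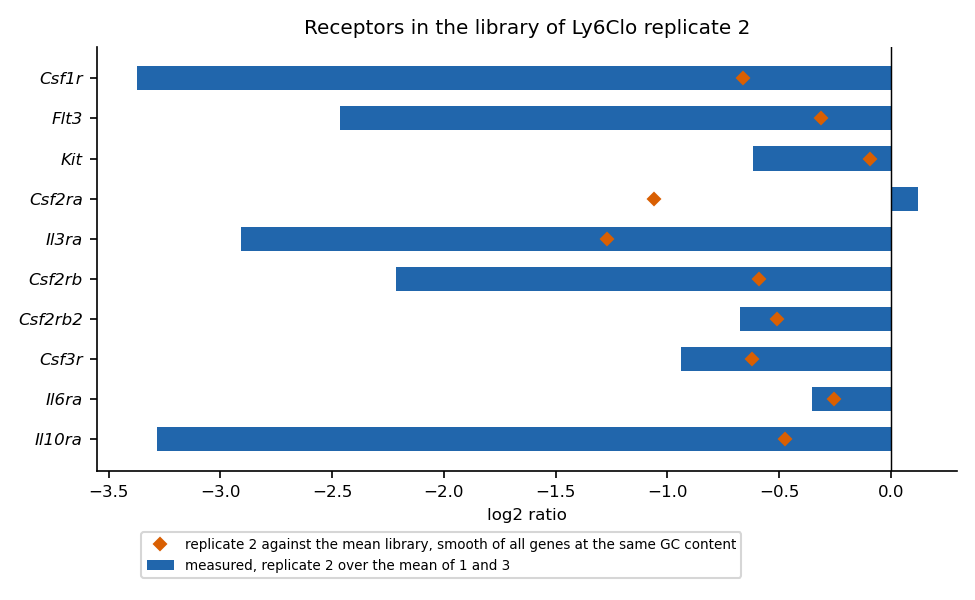
Log2 ratio of each receptor in Ly6Clo replicate 2 to the mean of replicates 1 and 3 (bars), with the smooth over all genes at the same transcript GC content, taken against the mean library (diamonds). The bars of Csf1r, Il10ra and Il3ra reach furthest to the left, and that of Csf2ra is the only bar to the right of 0.

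The stretches around the starts of the receptor genes come from RefSeq's promoter windows (250 bases before to 50 after the start). Of the receptors called lower in macrophages that have a window, 3 are shown as examples: Csf2ra with 2 matches to the motif, Csf3r with 1 and Flt3 with none. Csf2rb2 and Il6ra were also lower and hold matches but are not printed. Of the 10 receptors 7 had a window, and Csf1r, Csf2rb and Il10ra had none. Capitals mark GAGGAA or its reverse complement TTCCTC, a core bound by the myeloid transcription factor PU.1, which was searched on both strands and is the only motif searched. It was present in 28.3% of all 32851 windows and in those of 5 of 7 receptors: with 2 matches in Csf2ra and Csf2rb2 and 1 in Csf3r, Il6ra and Kit. The windows of Flt3 and Il3ra held none. A match describes the letters only. The build of these windows is older than the one used for the counts.
Csf2ra (GRCm38.p6, chr19:61228369-61228668, minus strand): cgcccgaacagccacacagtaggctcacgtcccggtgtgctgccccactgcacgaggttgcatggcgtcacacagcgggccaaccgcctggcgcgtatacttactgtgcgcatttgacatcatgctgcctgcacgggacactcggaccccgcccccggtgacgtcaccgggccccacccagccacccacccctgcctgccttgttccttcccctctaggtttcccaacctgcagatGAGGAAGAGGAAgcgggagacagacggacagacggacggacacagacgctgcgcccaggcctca
Csf3r (GRCm38.p6, chr4:126024409-126024708, plus strand): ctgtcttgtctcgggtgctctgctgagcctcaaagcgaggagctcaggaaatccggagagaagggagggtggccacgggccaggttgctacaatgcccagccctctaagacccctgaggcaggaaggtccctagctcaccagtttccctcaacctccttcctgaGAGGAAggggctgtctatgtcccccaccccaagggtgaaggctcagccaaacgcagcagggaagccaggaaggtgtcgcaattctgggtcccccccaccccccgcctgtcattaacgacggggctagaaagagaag
Flt3 (GRCm38.p6, chr5:147400440-147400739, minus strand): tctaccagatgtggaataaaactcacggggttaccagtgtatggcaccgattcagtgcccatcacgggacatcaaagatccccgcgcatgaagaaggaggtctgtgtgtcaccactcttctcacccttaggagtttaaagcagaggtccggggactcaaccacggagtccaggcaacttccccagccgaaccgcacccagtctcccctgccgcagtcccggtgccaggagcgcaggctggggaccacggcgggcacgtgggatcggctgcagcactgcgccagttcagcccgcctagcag
In Csf2ra both matches adjoin each other close to the start, in Csf3r the match lies further upstream, and the Flt3 window is shown without one.

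Other genes of the same pathways, 54 in 4 lists, were read beside the receptors. Of 51 tested, 13 were higher and 17 lower in macrophages than in monocytes (DESeq2), where 20.3% and 15.0% of all genes tested were called in these directions. Their median log2 fold change was -0.38, beside 0.08 over all genes. Among ligands, 2 of 6 tested were higher and 1 lower. Kitl, the ligand of KIT, had 1203 to 5380 normalized counts in macrophages and 6.07 to 145 in monocytes (log2 fold change 6.05 ± 0.45, SE, DESeq2 adjusted p = 3.11e-39). Il10, the ligand of IL10RA, had 81.8 to 294 in macrophages and 0 to 17.3 in monocytes (6.05 ± 0.78, adjusted p = 1.65e-13). Flt3l, the ligand of FLT3, was lower (-1.21 ± 0.25, adjusted p = 6.49e-06). Csf1, the ligand of CSF1R, had 0 to 174 normalized counts over all libraries and was not called (adjusted p = 0.725).

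Of the 12 partner chains and other receptors, 4 were higher and 4 lower in macrophages. Epor, the erythropoietin receptor, had 4637 to 8176 normalized counts in macrophages and 0 to 180 in monocytes (log2 fold change 6.81 ± 0.63, SE, DESeq2 adjusted p = 1.78e-25). Tnfrsf11a, which encodes RANK, was higher by 1.63 ± 0.28 (adjusted p = 5.42e-08). Il13ra1 and Ifngr1 were lower, by -1.82 ± 0.20 and -0.82 ± 0.18. Erythroid genes were also higher in macrophages in 9 of 9 cases, at 8174 to 32591 TPM against 341 to 1319 TPM, and their part in the Epor value was not tested.

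Of 19 signalling proteins, 4 were higher and 6 lower. The transcription factor gene Stat3 (log2 fold change -2.11 ± 0.31, SE, DESeq2 adjusted p = 1.76e-10) and the phospholipase gene Plcg2 (-2.14 ± 0.36, adjusted p = 2.25e-08) were lower, and the adaptor gene Grb2 (1.04 ± 0.19, adjusted p = 2.31e-07) and the Src-family kinase gene Fyn (1.79 ± 0.30, adjusted p = 4.24e-08) higher. Of 14 negative regulators, 3 were higher and 6 lower. Dok2 (2.21 ± 0.23) and Sla2 (5.15 ± 0.91) were the higher ones with the lowest adjusted p, and Sh2b2 (-2.93 ± 0.38) and Cblb, a ubiquitin ligase (-2.82 ± 0.38), the lower ones.

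Between eYFP+ and eYFP- macrophages, DESeq2 called 0 of 51 of these genes and edgeR 0 of 50, with 2 at an unadjusted DESeq2 p under 0.05. Socs3, named after its values were seen, is 1 of them. This feedback inhibitor of cytokine signalling had 68.8 to 118 in eYFP+ and 257 to 372 in eYFP- macrophages (-1.77 ± 0.72, adjusted p = 0.290, and 6.72e-07 without Ly6Clo replicate 2).

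Between Ly6Chi and Ly6Clo monocytes, 1 of 51 was higher and 5 were lower in Ly6Chi cells, where 8.62% of all genes tested were called in either direction. The higher one was Sla, an adaptor that dampens receptor signalling (log2 fold change 1.40 ± 0.28, SE, DESeq2 adjusted p = 3.47e-05, edgeR 0.00702). Fyn was lower (-4.00 ± 0.43, DESeq2 adjusted p = 1.31e-17, edgeR 0.000302), as were Kitl, Il10 and Il2rg, with DESeq2 adjusted p from 0.0117 to 0.021. edgeR called only Sla and Fyn of the 6. Without Ly6Clo replicate 2 the DESeq2 calls of Kitl and Il2rg were lost (adjusted p = 0.0959 and 0.185). Other genes were gained, among them Csf1 (higher, log2 fold change 1.41, DESeq2 adjusted p = 0.039) and Epor (lower, -2.04, 2.16e-05). In that fit 2 of 51 were higher and 4 lower.

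The genes most like each receptor over the 12 libraries were sought among 10892 genes with a mean of at least 50 normalized counts, by Pearson's r of the authors' variance-stabilised values. Libraries of a group share their cell type, and Ly6Clo replicate 2 weighs on several values, so r is a description. Csf3r was closest to S100a4 (r = 0.99), a calcium-binding protein gene of motile cells, then Msrb1 and Arhgef37. Csf2ra was closest to Bnip2 (r = 0.99) and Csf2rb to Plcg2 (r = 0.99), the phospholipase named above. Flt3 was closest to Mfge8, Slc1a5 and Sept6 (r = 0.96, 0.96 and 0.94). Kit was closest to Slc18a2 (r = 0.90), a vesicular monoamine transporter used by mast cells and basophils. Csf1r was closest to Fbxl6 (r = 0.98, and 0.96 without Ly6Clo replicate 2), which was also among the 3 genes closest to Il10ra (r = 0.96). Il10ra was closest to Nuak2 (r = 0.98), Il3ra to Nckipsd (r = 0.97, and 0.89 without that library), Csf2rb2 to Furin (r = 0.96) and Il6ra to Mapkapk2 (r = 0.95).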

How the data were processed

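RNA-seq of polyadenylated RNA from 12 libraries was re-analysed from the deposited gene table of read counts and the deposited TPM table, which the authors made from the same libraries. According to the methods, reads were trimmed, error-corrected and freed of ribosomal RNA by the authors, mapped to GRCm39 and counted as unambiguous pairs on Ensembl exons with featureCounts. Variance-stabilised values, close to a log2 scale, were made by the authors with DESeq2 and deposited beside them. They served for correlations only. Full-length cDNA had been amplified before tagmentation, with no molecular identifiers, so amplification adds to the spread. Counting by strand is not given in the sources used here. bcl2fastq version was 2.20.0.422.

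Counts were fitted in DESeq2 1.42.0 (R 4.3.3) over all 12 libraries with group as the only factor, size factors by median of ratios, Wald tests and Benjamini-Hochberg adjustment over all genes of a contrast, with an adjusted p of 0.05 as threshold. edgeR 4.0.16 (quasi-likelihood, TMM) was an alternative, beside other scalings, count filters, GC correction, a replicate block and leaving out each library. Intervals of fold changes are at 95%. The fits were tested on simulated data. TPM was used as deposited, with no test.

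Whether same-numbered libraries pair was checked by the correlation of their deviations from the group means over 2000 genes. It was 0.44, 0.28 and 0.12 for the macrophage groups, all above 0.1. The labels give no shared mouse or day, so pairing is not established. The main fit did not pair these libraries, and the replicate block was an alternative only. The correlation was 0.28, 0.05 and -0.01 for the monocyte groups. For eYFP+ macrophages with Ly6Clo monocytes it was -0.63, -0.61 and 0.425.

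The 10 receptors were chosen by name. Of the pathway lists, the genes named were the 2 called with the lowest adjusted p per list and direction in each of the first 3 contrasts, and for each receptor the genes of highest correlation. The receptors and all lists were chosen with earlier results of these data known. GC content came from each gene's longest GENCODE transcript on the older build GRCm38. No samples were left out. The values of 1 gene of the pathway lists are not reported here, though it is in the counts.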

Additional observations from a re-analysis of the deposited data

How the results depend on the processing

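The 6 receptors lower in macrophages than in monocytes were counted at 6 to 8 when 1 library was left out, and no other alternative moved that count beyond 1.5 times. Between the macrophage groups the 2 receptors called fell to 0 by edgeR and 0 by edgeR with a replicate block, and ranged from 1 to 2 without single libraries. Between the monocyte groups the count of 0 became 1 with a minimum of 10 counts in 3 libraries (Csf3r), with only the groups compared (Csf2rb2) and with the GC correction (Csf3r), and ranged from 0 to 1 without single libraries. For eYFP- macrophages against Ly6Clo monocytes the 4 calls became 2 without independent filtering, by edgeR and with only the groups compared, and ranged from 2 (without eYFP- replicate 3, Ly6Clo replicate 1 or Ly6Clo replicate 3) to 7. For eYFP+ macrophages against Ly6Clo monocytes the range was 3 to 7, with 7 reached without Ly6Clo replicate 2 in both. Of the pathway genes, the 0 called between the macrophage groups became 1 with the minimum of 10 counts, with the replicate block, with only the groups compared and with GC correction and block together, with a range of 0 to 1. The 6 called between the monocyte groups became 10 with the minimum of 10 counts, 2 by edgeR and 2 by edgeR with a replicate block, with a range of 3 (without Ly6Chi replicate 2 or 3) to 8.

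Of 1733 recomputed fold changes of receptors, 1654 kept direction and side of the threshold, 34 fell under it, 24 passed it and 21 turned direction. None of those that turned had been called. The turned values were, between the macrophage groups, Csf1r (0.13, range without single libraries -0.0642 to 0.42), Csf2ra (-0.47 to 0.24), Csf2rb (-0.12 to 0.53), Csf2rb2 (-0.71 to 0.42, and 0.00516 with GC correction and replicate block) and Il6ra (-0.39 to 0.22). Between the monocyte groups they were Csf1r (-0.64 to 0.24), Il10ra (-0.85 to 0.12) and Csf2ra (-0.41 with the GC correction, -0.31 with GC correction and replicate block). In eYFP+ macrophages against Ly6Chi monocytes they were Csf1r (-0.39 to 0.0943) and Kit (-0.80 to 0.00874), and against Ly6Clo monocytes Csf1r (-0.90 to 0.0315) and Il3ra (-0.38 to 0.50). The cause was not tested.

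Counts of all genes called between the macrophage groups were 439 as reported, 64 by edgeR, 24 by edgeR with a replicate block, 1155 with the replicate block, 1151 with GC correction and block, 686 with only the groups compared, 865 without Ly6Clo replicate 2 and 227 without eYFP- replicate 3. Between the monocyte groups they were 1860, 829 by edgeR, 537 by edgeR with a replicate block, 1191 with only the groups compared, and 1219 and 1205 without Ly6Chi replicate 1 or 2. edgeR with a replicate block gave 3679 against 5682 for eYFP- macrophages against Ly6Chi monocytes, 3417 against 5665 for eYFP- macrophages against Ly6Clo monocytes and 3674 against 5804 for eYFP+ macrophages against Ly6Clo monocytes, where only the groups compared gave 3680. GC correction with replicate block was chosen after seeing the data.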
